A study of Mus musculus with 20 samples.

Results

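The seminal vesicle secretory protein genes (Svs) were followed through tissue recombinants, which are grafts that put epithelium together with embryonic mesenchyme, the connective tissue that can direct what the epithelium becomes. The family was taken as 8 listed genes, Svs1, Svs2, Svs3a, Svs3b, Svs4, Svs5, Svs6 and Svs7, out of 23284 genes in the deposited table. All 8 were measured in all 20 libraries, Svs7 under the name Pate4, of which RefSeq lists Svs7 as a synonym, and all 8 stood above the low-level minimum of 5 (log2) in every library. Each graft held mouse seminal vesicle or prostate epithelial cells from donors 2 months old, on a rat urogenital sinus mesenchyme of the Sprague Dawley strain, and was collected 3 months after implantation. The labels name the mouse strain both as C57Bl/6J and as a hybrid of 129/SvImJ and C57Bl/6J. All hosts drank doxycycline for 3 months, which in the grafts that carry it switches on NKX3.1, wild type or with a point mutation, from an altered pTRIPZ vector. The 5 groups of 4 libraries were seminal vesicle epithelium labelled mNKX3.1+UTY_sh (the construct and a hairpin against UTY), seminal vesicle epithelium labelled UTY_sh, seminal vesicle epithelium labelled mNKX3.1, prostate epithelium labelled wild-type NKX3.1 (PE), and seminal vesicle epithelium labelled wild-type NKX3.1 (SVE). Since nothing in the labels tells if the m is short for mouse or for mutant, the construct is named only as labelled. Nor do the labels state that libraries of 1 group stem from different animals, and each p-value then measures a spread between samples that may be purely technical.

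Seminal vesicles secrete most of the volume of mouse seminal fluid, and the Svs proteins are their main product. After mating, the transglutaminase TGM4, which comes from the prostate, cross-links the larger Svs proteins into the copulatory plug. In the mouse SVS2 also coats sperm and holds back capacitation, the ripening that sperm need to fertilise, and SVS7 is a small protein of the Ly6 fold that binds sperm membranes. Svs2 to Svs6 belong to a fast-evolving family of transglutaminase substrates that lies among whey acidic protein genes, and transcription of the secretory genes of the seminal vesicle depends on androgen. NKX3.1 is a homeodomain factor of prostate epithelium, and UTY, encoded on the Y chromosome, resembles the demethylase KDM6A.

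By the RefSeq annotation, 6 of the 8 genes stand beside each other on chromosome 2 in the order Svs2, Svs3b, Svs4, Svs3a, Svs6, Svs5. Svs1 lies on chromosome 6 and Svs7 on chromosome 9. The bases that precede the start of transcription are shown for Svs2 and Svs6, the genes that fell least and most below. The same bases are shown for Svs5, whose promoter is close to that of Svs6, and for the near-identical pair Svs3a and Svs3b. They come from RefSeq on build GRCm38.p6 (the deposited table was made on mm9), each read 5′ to 3′ on the gene's own strand, with 3 motifs in capitals on either strand: TATAAA (the TATA box), AGATAA (letters bound by GATA-family factors) and AGAACA (the core letters of steroid hormone response elements). Svs2 is on the minus strand at chr2:164238342-164238591, Svs5 on the plus strand at chr2:164332515-164332764, Svs6 on the plus strand at chr2:164316501-164316750, Svs3a on the plus strand at chr2:164289017-164289266 and Svs3b on the minus strand at chr2:164256644-164256893.
Svs2: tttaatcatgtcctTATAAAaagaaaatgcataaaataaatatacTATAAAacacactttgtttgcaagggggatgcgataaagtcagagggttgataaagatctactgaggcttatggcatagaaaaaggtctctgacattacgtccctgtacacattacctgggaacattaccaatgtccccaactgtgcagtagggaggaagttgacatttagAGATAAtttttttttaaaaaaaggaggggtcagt
Svs5: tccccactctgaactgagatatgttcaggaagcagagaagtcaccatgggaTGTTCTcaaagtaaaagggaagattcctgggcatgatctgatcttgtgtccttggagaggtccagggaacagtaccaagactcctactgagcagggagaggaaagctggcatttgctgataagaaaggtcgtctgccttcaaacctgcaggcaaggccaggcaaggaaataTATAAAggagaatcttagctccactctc
Svs6: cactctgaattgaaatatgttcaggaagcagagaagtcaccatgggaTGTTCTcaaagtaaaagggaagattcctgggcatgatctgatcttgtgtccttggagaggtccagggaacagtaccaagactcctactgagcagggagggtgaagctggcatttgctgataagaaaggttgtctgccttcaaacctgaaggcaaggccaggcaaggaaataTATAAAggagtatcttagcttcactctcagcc
Svs3a: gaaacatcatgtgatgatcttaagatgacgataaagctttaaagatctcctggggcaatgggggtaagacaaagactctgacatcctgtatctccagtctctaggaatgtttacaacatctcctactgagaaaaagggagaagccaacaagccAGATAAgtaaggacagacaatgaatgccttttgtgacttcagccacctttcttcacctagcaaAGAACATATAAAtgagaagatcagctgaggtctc
Svs3b: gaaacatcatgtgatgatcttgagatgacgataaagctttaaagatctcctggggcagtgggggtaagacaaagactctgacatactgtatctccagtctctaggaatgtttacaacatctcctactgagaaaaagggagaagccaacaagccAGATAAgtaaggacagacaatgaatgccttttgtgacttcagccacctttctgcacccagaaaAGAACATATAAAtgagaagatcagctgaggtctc

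Motifs were counted over the 300 bases from 250 before to 50 after each start, in the 7 Svs genes that the table covers (Svs7 is not among them) and in 27025 genes in all. TATAAA was present in 6 of the 7, all but Svs1, against 14.2% of all genes. Counted from the start, it began at -28 in Svs3a, Svs3b, Svs4 and Svs5 and at -32 in Svs6. Svs4 held 3 further matches, at -182 and, on the opposite strand, at -152 and -61, and the 2 matches of Svs2 began at -236 and -205. AGATAA was present in 5 of the 7, all but Svs5 and Svs6, against 11.4% of all genes. AGAACA was present in 5 of the 7, all but Svs2 and Svs4, against 19.02% of all genes, and ran directly into TATAAA in Svs3a and Svs3b. TAAGTA and AAGTG, motifs of NKX3.1 and its relatives, were present in 3 of the 7 each, against 7.61% and 46.5% of all genes, and the forkhead motif TGTTTAC in Svs3a and Svs3b only among the 7, against 3.55%. These are matches of letters and show no binding. Over this window the promoters of Svs3a and Svs3b were 97.7% identical and those of Svs5 and Svs6 96.3% identical, and the other pairs reached at most 72.8%. The transcripts of Svs3a and Svs3b were 93.4% identical as well. Svs3a and Svs3b transcripts shared 41.2% and 39.3% of their 50-base words, so reads may have been split between them in either way. No other pair of the 8, Svs5 and Svs6 included, shared a word of 50 bases.

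The deposited values are log2 levels that were already scaled between libraries. From them, totals of 14753660 to 29584270 reads per library were estimated, since low values did not turn into whole reads. The prostate gene Pbsn (probasin) was between 5.29 and 15.71 in the 12 libraries of the mNKX3.1+UTY_sh, UTY_sh and SVE groups and between 17.37 and 18.00 in the other 8. Uty averaged 9.15, 9.22, 10.23, 10.24 and 9.29 in mNKX3.1+UTY_sh, UTY_sh, mNKX3.1, PE and SVE, and the difference of neither hairpin group from SVE passed the test. The names of the groups below are those of the labels. The 9 prostate markers summed to 22.0 to 22.1 (log2) in mNKX3.1 and 22.0 to 22.2 in PE, and to 9.99 to 19.3, 14.05 to 18.7 and 10.9 to 19.8 in mNKX3.1+UTY_sh, UTY_sh and SVE. Smooth muscle markers, 6 genes, summed to 15.3 to 15.5 in mNKX3.1 and 15.2 to 15.7 in PE, and to 16.2 to 17.0 in the other groups, and luminal epithelial markers, 5 genes, to 14.82 to 14.97 in mNKX3.1 and PE and 14.02 to 14.42 in the other groups. Endothelial markers (4 genes) summed to 9.96 to 10.18 in mNKX3.1 and 9.75 to 10.24 in PE, and to 10.41 to 10.71 in the other groups. Basal markers (4) summed to 10.81 to 11.20 in mNKX3.1 and 10.84 to 11.38 in PE, and to 11.30 to 11.76 in the other groups, and fibroblast markers (5) to 13.44 to 13.61, 13.45 to 13.73 and 13.67 to 14.16. Of these, 3 basal, 3 fibroblast and 2 endothelial genes were called lower in PE than in SVE, and 3, 3 and 3 in mNKX3.1. Of all genes tested, 30.4% were called lower in PE and 30.6% in mNKX3.1. The remaining basal marker, Krt15, was called higher in both, at means of 9.45 in PE and 9.44 in mNKX3.1 against 8.66 in SVE. Leukocyte markers (5) summed to 8.98 to 11.27 in mNKX3.1 and 8.70 to 11.93 in PE, and to 9.43 to 9.85 in the other groups. In mNKX3.1 and PE these sums thus lay both above and below those of the other groups. The 4 kidney and 4 epididymis markers summed to at most 5.18, near the floor of the values. In mNKX3.1 and PE, where the Svs genes below were low, the prostate and luminal sums were higher. The smooth muscle, endothelial, basal and fibroblast sums were lower there, the last 2 with some overlap. The median differences in PE were -0.31 for endothelial and -0.40 for fibroblast genes, smaller than the shift of 0.77 under equal library totals given below. For basal genes the medians were -0.80 in PE and -0.84 in mNKX3.1, close in size to the shifts of 0.77 and 0.78. The mesenchyme is rat, and how rat reads were handled is not given, which bears on the smooth muscle and fibroblast sums. The part of these markers in the Svs levels was not tested.

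The libraries labelled mNKX3.1 lay close to weighted sums of the PE libraries. Over 617 genes outside the family that were above 11 in every library, the best non-negative sum of the 4 PE libraries came within a median of 0.0191 to 0.0267 (log2) of each library labelled mNKX3.1. Sums of the 4 SVE libraries came within 0.0376 to 0.0589 of the libraries labelled mNKX3.1+UTY_sh and 0.0334 to 0.0610 of those labelled UTY_sh, and sums of the 4 libraries labelled mNKX3.1 within 0.0433 to 0.0644 of PE. Within a group, where only 3 libraries are left to sum, the fit left 0.0451 to 0.126 for PE and 0.0615 to 0.108 for SVE. PE replicate 3 had a weight of 0.514, 0.510 and 0.407 in the sums for mNKX3.1 replicates 1, 2 and 4, and of 0 in that for replicate 3. That PE library stood apart from its group in several genes: Sbp, a spermine-binding protein gene of the prostate, was at 19.38 there, against 5.63, 7.35 and 8.14 in the other PE libraries. It was at 18.48, 18.53, 8.46 and 18.22 in mNKX3.1 replicates 1 to 4. Whether the mNKX3.1 and PE libraries are independent samples was not tested.

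The 8 genes together outweighed all other genes combined in 10 of the 12 libraries labelled mNKX3.1+UTY_sh, UTY_sh and SVE, and were a small part of the 8 libraries labelled mNKX3.1 and PE. As a share of the summed antilog values of a library, they took 57.3%, 57.6%, 53.8% and 48.9% in the libraries labelled mNKX3.1+UTY_sh, 57.4%, 52.5%, 55.2% and 56.4% in UTY_sh, and 46.2%, 58.2%, 53.1% and 58.8% in SVE. They took 0.786%, 0.731%, 1.37% and 0.847% in mNKX3.1 and 1.44%, 1.31%, 0.208% and 1.48% in PE. The first 3 groups overlapped each other, as did the last 2, and no library of the one set came near the other. The lowest shares of mNKX3.1+UTY_sh (replicate 4) and of SVE (replicate 1) belonged to the libraries with the most Pbsn of their groups, at 15.06 and 15.71, whereas in UTY_sh the lowest share was in replicate 2, with Pbsn at 13.81, and the most Pbsn in replicate 3, at 14.81. Its part in the shares was not tested. The means were 54.4% ± 4.03 in mNKX3.1+UTY_sh, 55.4% ± 2.10 in UTY_sh, 0.933% ± 0.294 in mNKX3.1, 1.11% ± 0.605 in PE and 54.1% ± 5.85 in SVE (SD, n = 4 each).

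**Figure D1:**
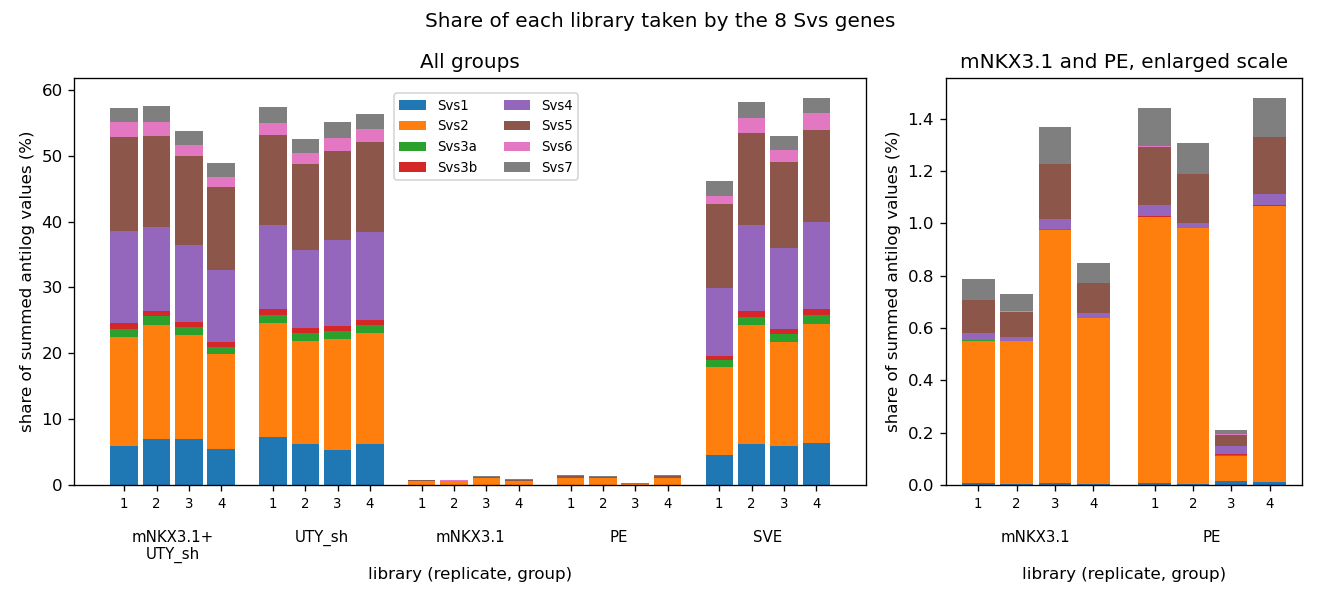
Share of the summed antilog values of each library (percent, left panel all 20 libraries, right panel mNKX3.1 and PE on an enlarged scale) taken by each Svs gene; each bar is 1 library. Svs2, Svs4 and Svs5 fill most of the bars of mNKX3.1+UTY_sh, UTY_sh and SVE, and Svs2 most of those of mNKX3.1 and PE except PE replicate 3, at 0.208% in all.

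Svs2 was the most abundant gene of every library of mNKX3.1+UTY_sh, UTY_sh and SVE, followed by Svs5, Svs4 and Svs1 in each of them, and 7 or 8 of the 10 most abundant genes were Svs genes. In reads, Svs2 had 4072968, 4459765, 3814718 and 4274192 in mNKX3.1+UTY_sh, between 3883859 and 4040177 in UTY_sh, and 3340498, 4552030, 3200283 and 4316197 in SVE. Per kilobase of transcript the order changed. Svs5 came first, then Svs4, Svs2 and Svs6, in all 3 groups, since the Svs2 transcript is 1695 bases long and that of Svs5 628 bases. In SVE the normalised level per kilobase was 5853770 for Svs5, 4594200 for Svs4, 2668910 for Svs2, 1030550 for Svs6, 586280 for Svs7, 568787 for Svs1, 267804 for Svs3a and 179511 for Svs3b. Svs7 and Svs1 are the neighbours in that order that lay closest, and they changed places in mNKX3.1+UTY_sh and UTY_sh. In PE and mNKX3.1 Svs2 led per kilobase, followed by Svs5 and Svs7, and Svs3a and Svs3b were last in every group.

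Prostate and seminal vesicle epithelium were compared first. All 8 genes fell in PE relative to SVE in limma's moderated test with Benjamini-Hochberg adjustment, where 30.4% of the 13456 genes tested fell. Their median log2 difference was -9.79, against 0.02 over all genes tested, and the 8 ranked between the 2nd and the 66th of all genes by size of the difference. No PE library reached any SVE library in any of the 8, a separation in the lower direction that 23.6% of all genes tested had. In bulk libraries fewer cells that make these RNAs and less RNA in each cell cannot be told apart.

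The RNAs of the plug proteins did not fall alike. Svs2 was at 17.31, 17.26, 13.86 and 17.32 in PE, against 21.57, 22.37, 21.92 and 22.42 in SVE. PE replicate 3 thus lay more than 3 units below the rest of its group. The difference was -5.63 (SE 0.67, adjusted p = 9.98e-07 by limma), and -4.77 without PE replicate 3. Svs1, which is related in sequence to amine oxidases, was at 9.95, 8.88, 11.33 and 10.64 in PE, against 20.01, 20.81, 20.51 and 20.89 in SVE. PE replicate 3 was here the highest of its group. It differed by -10.35 (SE 0.39, adjusted p = 2.25e-13 by limma). Svs3a and Svs3b lay between 6.90 and 8.93 and between 6.25 and 8.46 in PE, and between 17.77 and 18.63 and between 17.21 and 18.07 in SVE, and their differences were -10.26 and -10.40.

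Among the genes of the smaller secreted proteins, Svs6 had the largest difference of the 8. It was at 8.13, 7.32, 9.51 and 8.65 in PE, against 18.20, 19.39, 18.79 and 19.54 in SVE, and fell by 10.58 (SE 0.40, adjusted p = 2.02e-13 by limma). Svs5, whose promoter is nearly that of Svs6, was at 15.12, 14.86, 12.75 and 15.04 in PE, against 21.48, 22.00, 21.64 and 22.04 in SVE. It fell by 7.35 (SE 0.45, adjusted p = 1.77e-10 by limma). Svs4 was between 11.65 and 12.76 in PE and between 21.20 and 21.95 in SVE, and fell by 9.31. Svs7 was at 14.52, 14.22, 10.91 and 14.50 in PE, against 18.98, 19.43, 19.10 and 19.47 in SVE. The difference was -5.71 (SE 0.54, adjusted p = 5.93e-08 by limma), and -4.83 without PE replicate 3.

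**Figure D2:**
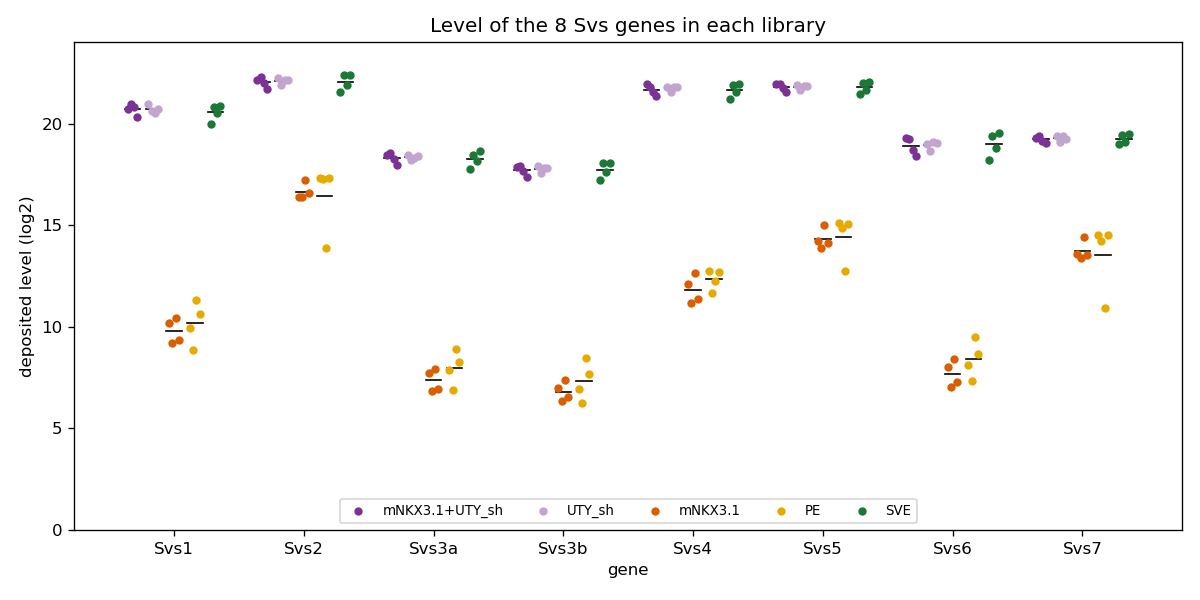
Deposited level (log2) of each Svs gene; each point is 1 library, the black line is the mean of 4, and the groups run from mNKX3.1+UTY_sh on the left to SVE on the right within each gene. The points of mNKX3.1 and PE lie below those of the other groups in all 8 genes, by 5.42 to 11.28 on the log2 scale for mNKX3.1 against SVE, and PE replicate 3 is the lowest PE point in Svs2, Svs5 and Svs7.

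The construct labelled mNKX3.1 was set against SVE in the same way. All 8 genes fell in the libraries labelled mNKX3.1, where 30.6% of all genes tested fell, with a median of -10.30 against 0.02 over all genes. Svs2 was at 16.38, 16.38, 17.23 and 16.61 in mNKX3.1, all below the lowest SVE level of 21.57, and fell by 5.42 (SE 0.67, adjusted p = 1.59e-06 by limma). Svs7, at 13.58, 13.38, 14.43 and 13.55 in mNKX3.1, fell by 5.51 and Svs5, at 14.24, 13.90, 15.01 and 14.14, fell by 7.47. The other 5 fell by 9.83 (Svs4) to 11.28 (Svs6). In none of the 8 genes did mNKX3.1 overlap with SVE, a separation in the lower direction found in 27.2% of all genes tested. Both comparisons use the same SVE libraries.

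What remained of each gene was then expressed as a percent of its mean antilog value in SVE. The genes retained unequal parts. Svs2 retained 1.88%, 1.89%, 3.39% and 2.21% in mNKX3.1 and 3.59%, 3.48%, 0.328% and 3.63% in PE. Svs7 followed it closely, with 1.95%, 1.69%, 3.51% and 1.91% in mNKX3.1 and 3.74%, 3.04%, 0.305% and 3.69% in PE. Svs5 retained 0.528%, 0.415%, 0.897% and 0.492% in mNKX3.1 and 0.966%, 0.810%, 0.188% and 0.917% in PE. Svs4 retained between 0.0691% and 0.190% in mNKX3.1 and between 0.0957% and 0.206% in PE. Svs1, Svs3a, Svs3b and Svs6 retained between 0.0237% and 0.0873% in mNKX3.1 and between 0.0290% and 0.163% in PE, and within a library these 4 lay close together, for example between 0.132% and 0.163% in PE replicate 3.

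**Figure D3:**
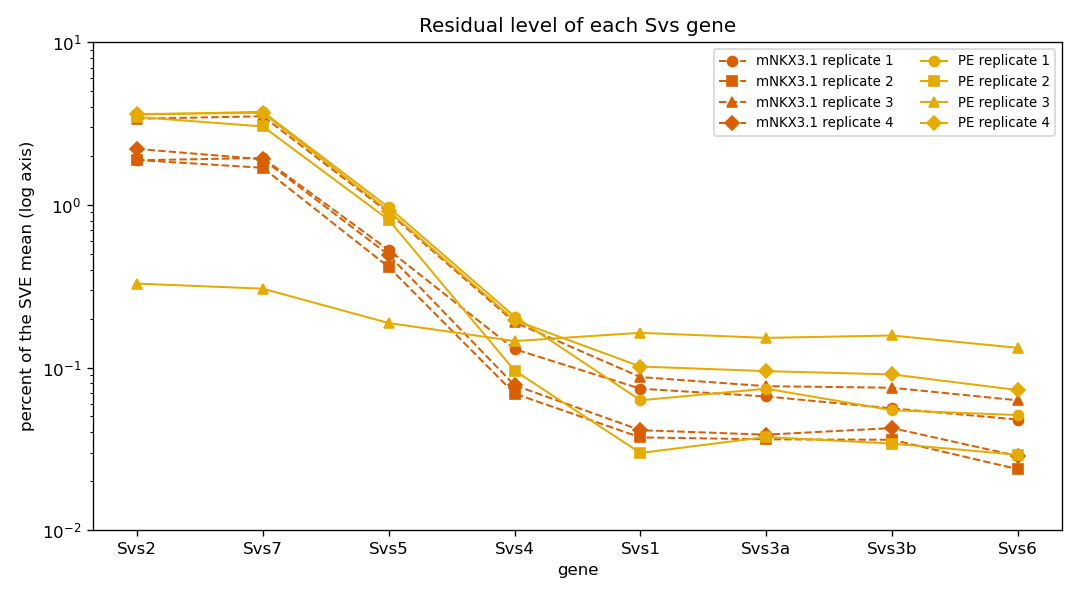
Level of each Svs gene as a percent of its mean in SVE (log axis), with 1 line for each library labelled mNKX3.1 (dashed) and PE (solid). In 7 of the 8 libraries the lines drop from Svs2 and Svs7, at 1.69% to 3.74%, to Svs1, Svs3a, Svs3b and Svs6, at 0.0237% to 0.101%, and in PE replicate 3 the line is nearly level between 0.132% and 0.328%.

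Svs2 still ranked among the abundant genes of these libraries. It had 113232, 119260, 149563 and 119058 reads in mNKX3.1 and 208732, 203671, 14117 and 190367 in PE, and was the 4th most abundant gene in PE replicates 1, 2 and 4, the 53rd in PE replicate 3, and between the 4th and the 8th in mNKX3.1. Svs7 had between 14283 and 21518 reads in mNKX3.1 and between 1817 and 30196 in PE. The least abundant member, Svs3b, had between 99 and 155 reads in mNKX3.1 and between 87 and 327 in PE. Levels below about 11 could not be turned into whole reads, so the read numbers of Svs1, Svs3a, Svs3b and Svs6 in these libraries are estimates, except that of Svs1 in PE replicate 3, at 2445 reads.

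PE replicate 3 had a flatter pattern than its group. It had the lowest Svs2, Svs5 and Svs7 of the 8 libraries labelled mNKX3.1 and PE, and the highest Svs1, Svs3a, Svs3b and Svs6. The highest residual percent of the 8 genes was 2.49 times the lowest there, against 50.8 to 120 times in the other PE libraries and 40.6 to 79.9 times in mNKX3.1. The 5 seminal vesicle markers outside the family were divided there. Sva, Ceacam10 and Dnase2b were at 7.78, 9.63 and 6.57 in PE replicate 3, the highest of the PE libraries, whereas Pax2 and Pax8 were at 3.01 and 3.15, the lowest of them. These 2 values lie near the 2.25 that 0 reads receive, and Pax8 was at most 3.54 in any PE library. Wfdc15b, the gene beside Svs2, was at 4.09 there, against 5.48 to 5.71 in the other PE libraries.

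Ratios of antilog values within a library show which genes kept their proportions. Svs2 to Svs7 was between 6.95 and 8.33 in mNKX3.1, between 6.91 and 8.24 in PE, between 6.48 and 7.31 in mNKX3.1+UTY_sh, between 6.86 and 7.43 in UTY_sh and between 5.98 and 7.69 in SVE. This ratio overlapped between all groups, for genes on different chromosomes whose levels fell by over 5 units. Svs3a to Svs3b was between 1.30 and 1.69 in mNKX3.1, between 1.38 and 1.94 in PE and between 1.32 and 1.48 in SVE, as far as reads can be assigned to these near copies. Svs2 to Svs1 was between 72.8 and 154 in mNKX3.1 and between 102 and 335 in PE replicates 1, 2 and 4, with 5.76 in PE replicate 3, against 2.66 to 2.96 in SVE. Svs5 to Svs6, the pair with the similar promoters, was between 73.5 and 117 in mNKX3.1 and between 84.2 and 186 in PE replicates 1, 2 and 4, with 9.47 in PE replicate 3, against 5.68 to 9.76 in SVE. Svs5 to Svs4 was between 4.45 and 6.93 in mNKX3.1 and between 5.13 and 9.27 in PE replicates 1, 2 and 4, with 1.41 in PE replicate 3, against 1.06 to 1.22 in SVE.

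The weighted sums of PE libraries described above, in whose fit the Svs genes had no part, left differences (log2, observed level in a library labelled mNKX3.1 minus sum) from -0.061 to 0.039 for Svs2 and from -0.031 to 0.0095 for Svs7. For Svs5 the differences ran from -0.25 to -0.0094, and for Svs4 from -0.93 to 0.14. For Svs1, Svs3a, Svs3b and Svs6 they ran from -1.52 to 0.44, from -1.505 to 0.14, from -1.53 to 0.35 and from -1.87 to 0.30, so these 4 genes were lower in mNKX3.1 replicates 1, 2 and 4 than the sums gave. Svs4 was below the sums in the same replicates, at -0.41, -0.93 and -0.68, and Svs5 less so, at -0.076, -0.25 and -0.18.

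The hairpin was then examined with the construct present, as mNKX3.1+UTY_sh against mNKX3.1. All 8 genes rose, where 31.4% of all genes tested rose, and none of the 8 had overlapping groups, a separation in the higher direction that 30.6% of genes had. Svs2 was at 22.17, 22.28, 21.99 and 21.72 in mNKX3.1+UTY_sh, against 16.38, 16.38, 17.23 and 16.61 in mNKX3.1, a difference of 5.39 (SE 0.67, adjusted p = 1.63e-06 by limma). Svs6 was at 19.31, 19.25, 18.73 and 18.39 in mNKX3.1+UTY_sh, against 8.04, 7.03, 8.44 and 7.30 in mNKX3.1, a difference of 11.22 (SE 0.40, adjusted p = 8.75e-14 by limma). The other 6 rose by 5.49 (Svs7) to 10.95 (Svs3a). Pbsn was at 5.29, 7.27, 12.56 and 15.06 in mNKX3.1+UTY_sh, against 17.69 to 17.96 in mNKX3.1, and its part in the difference was not tested.

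The hairpin without the construct, and the construct with the hairpin, were each set against SVE. None of the 8 genes passed in either comparison, nor did any of the 13456 genes tested (0% each), while 2.35% and 4.14% of genes had an unadjusted p below 0.05, and none of the 8 did. In UTY_sh against SVE the differences of the 8 ran from -0.03 to 0.15, and the 95% interval was -1.36 to 1.47 for Svs2 and -0.67 to 0.97 for Svs1. In mNKX3.1+UTY_sh against SVE they ran from -0.06 to 0.15, and the interval was -1.44 to 1.39 for Svs2 and -0.61 to 0.75 for Svs3a. Svs2 was at 22.25, 21.93, 22.17 and 22.15 in UTY_sh, inside the range of SVE. The intervals rest on 1 spread shared by all 5 groups, into which PE replicate 3 enters. Without SVE replicate 1, UTY_sh replicate 3 and mNKX3.1+UTY_sh replicate 4, the libraries richest in Pbsn, no member passed in either comparison.

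The difference between those effects was itself tested, as mNKX3.1+UTY_sh minus mNKX3.1, less UTY_sh minus SVE. All 8 genes passed with a positive value, where 24% of all genes tested did. The value was 5.33 for Svs2 (SE 0.95, adjusted p = 0.000174 by limma), 5.46 for Svs7, 7.45 for Svs5, 9.75 for Svs4 and between 10.76 and 11.25 for Svs1, Svs3b, Svs3a and Svs6.

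Libraries labelled mNKX3.1 were also compared with PE. No gene of 13456 passed (0%), and 0.483% of genes had an unadjusted p below 0.05, which none of the 8 had. That share is below the fraction of 0.05 that evenly spread p-values would give, and the lack of calls does not show likeness. Svs2 differed by 0.21, with a 95% interval of -1.20 to 1.63, and Svs7 by 0.20, with an interval of -0.95 to 1.34. Svs6 and Svs3a had the lowest values, -0.70 (interval -1.53 to 0.13) and -0.62 (interval -1.30 to 0.05). The groups overlapped in all 8 genes. This comparison depended on PE replicate 3: without it Svs2 differed by -0.65 and Svs7 by -0.68. When each library was weighted by its agreement with its group, which gave PE replicate 3 a weight of 0.257 and PE replicate 4 one of 4.74, Svs3a, Svs3b, Svs4 and Svs6 passed, with differences of -0.97, -0.85, -1.05 and -1.07 (adjusted p = 0.0142 to 0.0288 by limma), together with 850 genes in all.

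**Figure D4:**
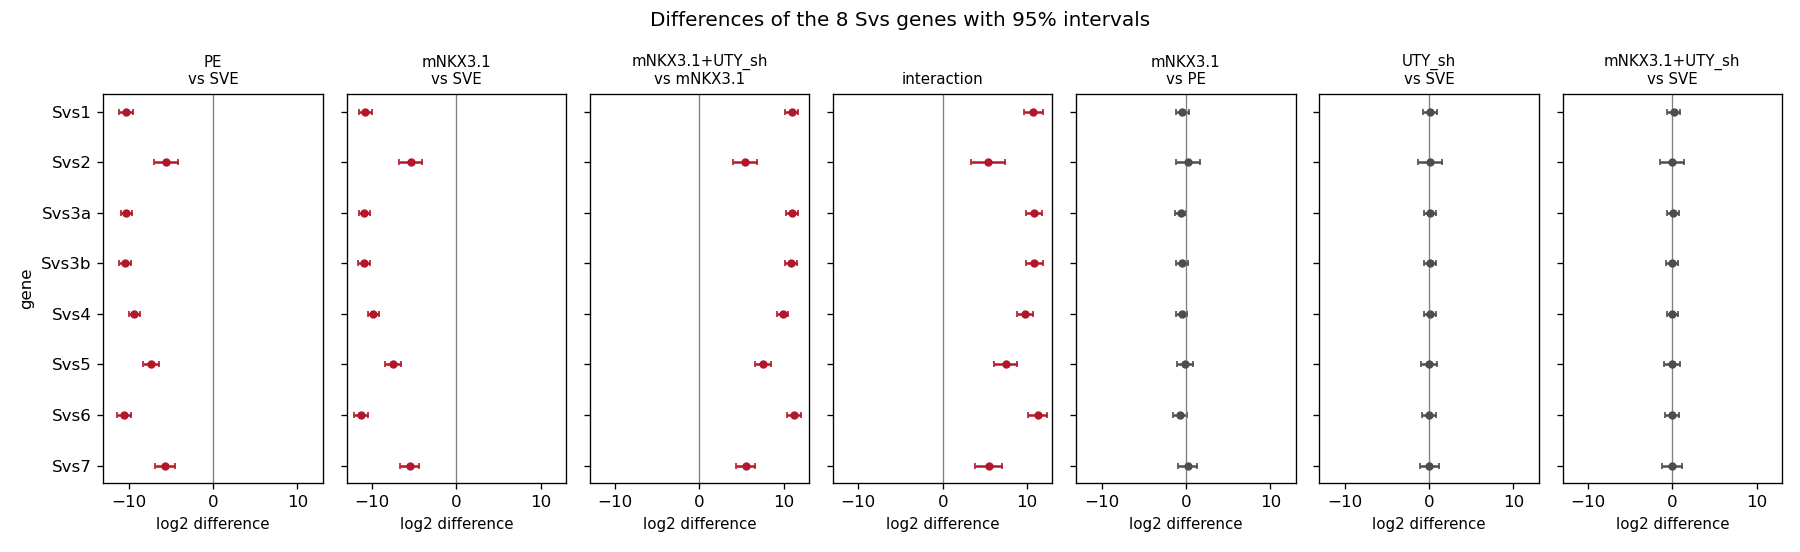
Log2 difference of each Svs gene in 7 comparisons (points) with its 95% interval (bars); red marks comparisons in which all 8 genes passed an adjusted p of 0.05, grey those in which none did, and "interaction" is mNKX3.1+UTY_sh minus mNKX3.1, less UTY_sh minus SVE. In the first 4 panels every interval lies away from 0, and in the last 3 every interval includes it.

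Genes outside the family were set beside it. The 5 genes whose centred levels over the 20 libraries lay closest to the median of the Svs genes were Spinkl (a gene named for its likeness to Kazal-type inhibitors), Ceacam10, Dnase2b, Sva and Doxl2, at a root mean square difference of 0.27, 0.34, 0.35, 0.57 and 1.02 (log2). For comparison, the Svs genes themselves lay at 0.26 to 0.48 for Svs4, Svs3a, Svs3b, Svs1 and Svs6, but at 1.42 for Svs5, 2.33 for Svs7 and 2.37 for Svs2. Spinkl, Ceacam10 and Dnase2b were also the 3 genes whose deviations from their group means followed those of the Svs genes most closely. The choice by likeness used these levels, so they are given as a description. Of 8 listed seminal vesicle products outside the family, 5 were tested, all 5 fell in PE and 4 in mNKX3.1, with medians of -10.38 and -10.88. Pate2, 1 of the 5, reached the minimum of 5 only in mNKX3.1+UTY_sh, UTY_sh and SVE, so its fall was fixed by that minimum. Of all genes tested, 30.4% fell in PE and 30.6% in mNKX3.1. Sva, the seminal vesicle autoantigen, differed by -10.88 in PE, and Ceacam10, a secreted member of the CEA family, by -10.38. Both retained amounts like those of Svs1, Svs3a, Svs3b and Svs6, at 0.0259% to 0.0594% and 0.0337% to 0.0815% in mNKX3.1 and 0.0286% to 0.104% and 0.0292% to 0.137% in PE. Spink3, a Kazal-type inhibitor, went another way: it was at 16.15, 16.23, 6.52 and 15.91 in mNKX3.1 and 5.41, 4.92, 17.14 and 6.72 in PE, and the difference of mNKX3.1 from SVE did not pass (-2.06, adjusted p = 0.417 by limma, and 0.33 without mNKX3.1 replicate 3).

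Genes that act on semen coagulation or regulate these epithelia were tested from fixed lists. Of 7 coagulation genes 3 were tested. Tgm4, the gene of the transglutaminase that cross-links Svs proteins, rose by 7.57 in PE (SE 1.93, adjusted p = 0.00239 by limma) and by 7.53 in mNKX3.1, opposite to the genes of its substrates. It was at 17.51, 12.63, 8.64 and 8.52 in SVE, and the values without SVE replicates 1, 3 and 4 in turn were 9.47, 6.51 and 6.47 in PE and 9.42, 6.47 and 6.43 in mNKX3.1, each past the test. Serpine2 and Plau, a protease inhibitor of seminal fluid and the urokinase gene, both fell, with differences of -2.85 and -3.15 in PE and of -2.88 and -3.19 in mNKX3.1. Of 14 regulators, 5 rose and 5 fell in PE, and 5 rose and 6 fell in mNKX3.1, with medians of -0.17 in both. Of all 13456 genes tested, 4275 rose and 4087 fell in PE, and 4263 rose and 4122 fell in mNKX3.1, so the counts of regulators lay near the background. Pax2, needed for the Wolffian duct that gives rise to seminal vesicles, fell, with differences of -5.21 in PE and -5.30 in mNKX3.1. Pax2 and Pax8 reached the minimum of 5 only in mNKX3.1+UTY_sh, UTY_sh and SVE, so once kept they could only be lower in PE and mNKX3.1. Foxa1, whose product opens chromatin for other factors, rose by 2.46 in PE and 2.54 in mNKX3.1. None of the tested members of these 3 lists passed in UTY_sh or in mNKX3.1+UTY_sh against SVE.

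Genes beside the Svs genes were looked at next. Of 11 neighbours with deposited values, 7 were tested, and 6 of these fell in both PE and mNKX3.1 relative to SVE, where 30.4% and 30.6% of all genes tested fell, with medians of -2.35 and -2.48. On chromosome 2, Wfdc15b, a whey acidic protein gene beside Svs2, fell, with differences of -5.54 in PE and -6.04 in mNKX3.1, as did Slpi, a protease inhibitor gene beside Svs5, with -3.08 (-2.41 without PE replicate 3) and -3.02. Matn4, the next protein-coding gene, differed by 0.19 (95% interval -0.31 to 0.68) in PE and 0.25 (interval -0.25 to 0.74) in mNKX3.1, and did not pass, though it was called higher when all libraries were set to the same total. Doxl2, beside Svs1 on chromosome 6, fell, with -8.15 and -8.59, and Gpnmb, on the other side, with -1.15 and -1.10, a call that was lost when all libraries were set to the same total. On chromosome 9, Hyls1 and Pate2 fell, with -1.70 and -2.35 in PE and -1.78 and -2.48 in mNKX3.1, while Svs7 between them was at -5.71 and -5.51. Doxl2 and Pate2 averaged 2.29 and 2.98 in mNKX3.1 and 2.73 and 3.11 in PE, near the value of 2.25 that 0 reads receive, so their differences are understated. Both reached the minimum of 5 only in mNKX3.1+UTY_sh, UTY_sh and SVE. Having been kept that way, they could only be lower in PE and mNKX3.1, so their falls add nothing to the count of 6.

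**Figure D5:**
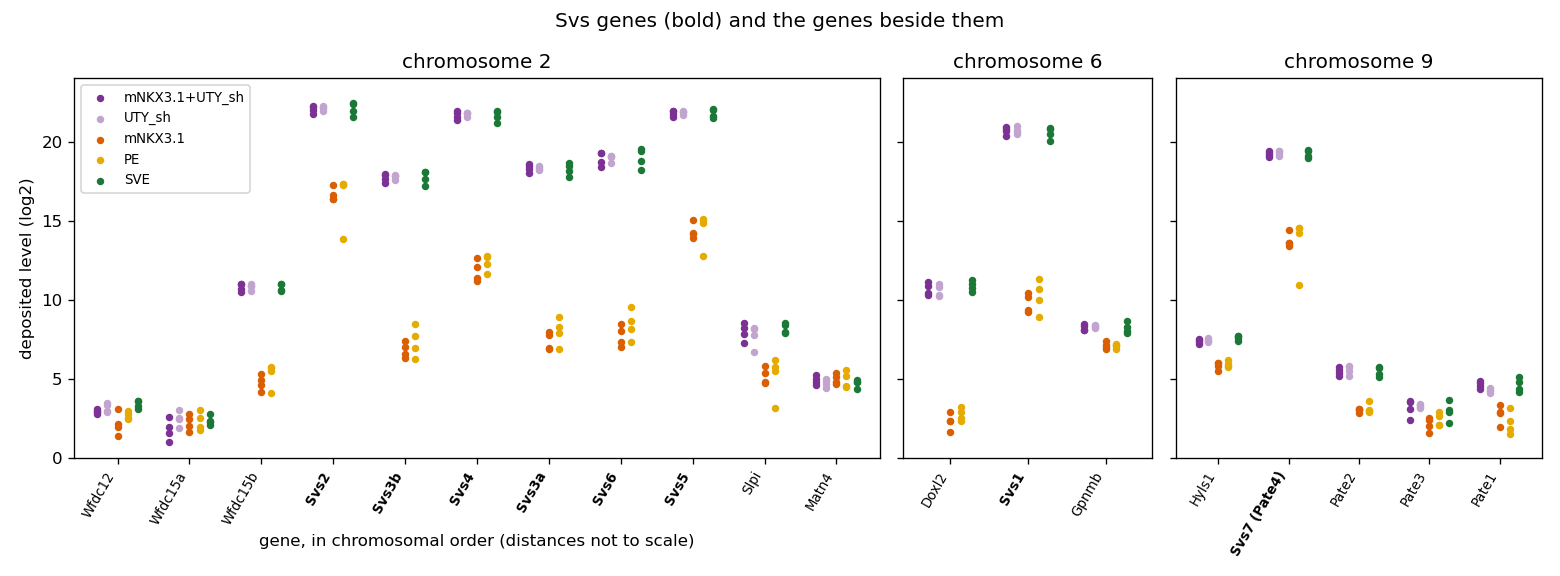
Deposited level (log2) of the Svs genes (bold) and their protein-coding neighbours in chromosomal order on chromosomes 2, 6 and 9; each point is 1 library. As deposited, Wfdc15b, Slpi, Doxl2, Gpnmb, Hyls1 and Pate2 are lower in mNKX3.1 and PE than in SVE, while Matn4, at means of 4.72 to 4.96, is not; with all libraries set to the same total, Gpnmb does not pass and Matn4 is higher in mNKX3.1 and PE.

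Because the Svs genes filled more than 46% of each SVE library, the scaling between libraries touches every statement of direction. When all libraries were set to the same total, all genes moved up by 0.77 in PE and 0.78 in mNKX3.1 relative to SVE, and when they were set to the same total without the Svs genes, all genes moved down by 0.34 in both. The share of higher genes among the genes called in PE against SVE was 51.1% as deposited, 92.3% under equal totals and 19.5% under equal totals without the Svs genes. The corresponding shares for mNKX3.1 against SVE were 50.8%, 92.3% and 19.8%. The 8 Svs genes passed in the same direction under each of these scalings, with Svs2 at -4.86 under equal totals in PE against SVE. Of the 6 neighbours that fell, Gpnmb did not pass under equal totals (-0.37 in PE and -0.32 in mNKX3.1), and Matn4 rose there (0.96 in PE and 1.03 in mNKX3.1) while it was at -0.15 and -0.09, not past the test, under equal totals without the Svs genes.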

How the data were processed

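Poly-A RNA of 20 grafts was sequenced, per the labels' protocols. Of tools, the notes that the submitters gave on processing list TopHat2 2.0.4, bcl2fastq 1.8.4, DESeq and Cufflinks 2.0.2, with build mm9, per the submitters' processing notes. The authors deposited 1 table of log2 expression values, and nothing in it gives read counts. The values have the form of a variance-stabilising transformation: with a constant of 9.5, 100% of 25975 values in the upper range (from about 11) became whole reads within 0.1, whereas lower values did not, and 0 reads map to 2.25. Values at the low end are therefore compressed, and no counting error was derived from them. The grafts contain rat stroma, and how rat reads were handled is not given in the sources used here.

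Genes at 5 or more in at least 4 libraries (13456 of 23284) were tested with limma 3.58.1 in R 4.3.3 (1 mean per group over 20 libraries, variance trend, Benjamini-Hochberg adjustment, adjusted p below 0.05). The procedure was tested on simulated data. All 8 members are named, with genes of fixed lists (seminal vesicle products, coagulation, regulators, chromosomal neighbours, cell type markers), the 5 genes nearest in profile and the 3 nearest in deviations from group means. The members and lists were chosen with earlier results of these data known. Alternatives were other minimum levels, scalings, variance models, library weights and libraries left out; undoing the transformation was added after seeing the data. Transcript lengths are from GENCODE vM21 and no batch is given in the labels. The levels of 2 genes are not reported here.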

Additional observations from a re-analysis of the deposited data

Results flagged for a closer look

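In groups of 4 libraries, a library was singled out where its distance from the nearest other as a part of the group's range exceeded Dixon's 95% critical value, which chance alone does in about 1 of 20 groups; 5 of 45 groups had one. PE replicate 3 gave 4 of the 5: Svs2 at 13.86, Svs5 at 12.75 and Svs7 at 10.91 (log2), and a share of the 8 genes of 0.208%, all the lowest of their group. Sbp, at 19.38, and Spink3, at 17.14, were the highest of the PE group in the same library. The fifth was Svs4 in UTY_sh replicate 2, at 21.55, the lowest of a group that otherwise lay between 21.80 and 21.81.

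The hairpin's difference with the construct (mNKX3.1+UTY_sh minus mNKX3.1) exceeded that without it (UTY_sh minus SVE) in all 8 genes by limma's test of the difference itself, by 10.76 for Svs1, 5.33 for Svs2, 10.86 for Svs3a, 10.85 for Svs3b, 9.75 for Svs4, 7.45 for Svs5, 11.25 for Svs6 and 5.46 for Svs7.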

How the results depend on the processing

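The 8 members kept their call and direction in PE and in mNKX3.1 against SVE, in mNKX3.1+UTY_sh against mNKX3.1 and in the interaction under every alternative run, with adjusted p of at most 0.00122, 7.68e-05, 1.48e-05 and 0.000626 by limma. Of 296 counts of calls recomputed, 293 stayed within 1.5 times the reported one. The interaction called 10335 genes under equal library totals, against 6467. With library weights, mNKX3.1 against PE called 4 members and 850 genes, against 0 and 0. Without the 10 most abundant other genes in the total, the share was 59.1% in UTY_sh and 1.33% in mNKX3.1. Residual levels moved by less than 1 SD in 112 of 112 recomputations. Where 1 of the 4 libraries was left out this was bound to happen, since the mean of 4 values cannot move that far, so those recomputations decide nothing. Without PE replicate 3 the mean residual level in PE went from 2.76% to 3.57% for Svs2 and from 2.69% to 3.49% for Svs7.

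Signs changed in 64 of 1184 recomputed differences, none of a difference that had passed; the cause was not tested. In UTY_sh against SVE, library weights gave -0.065 for Svs2, -0.0060 for Svs3a, -0.074 for Svs3b, -0.014 for Svs4, -0.049 for Svs5 and -0.046 for Svs7, and leaving out the 3 Pbsn-rich libraries gave -0.13 for Svs2, -0.056 for Svs3a, -0.14 for Svs3b, -0.077 for Svs4, -0.079 for Svs5 and -0.090 for Svs7. In mNKX3.1+UTY_sh against SVE, weights gave -0.0045 for Svs3a, -0.069 for Svs4 and -0.043 for Svs5, and leaving out the 3 libraries gave -0.035 for Svs4. In mNKX3.1 against PE, weights gave -0.63 for Svs2 and -0.76 for Svs7. Leaving out 1 library at a time, UTY_sh against SVE ran from -0.031 to 0.26 for Svs1, -0.11 to 0.17 for Svs2, -0.071 to 0.22 for Svs3a, -0.13 to 0.16 for Svs3b, -0.056 to 0.19 for Svs4, -0.069 to 0.12 for Svs5, -0.29 to 0.16 for Svs6 and -0.052 to 0.11 for Svs7. For mNKX3.1+UTY_sh against SVE the ranges were -0.034 to 0.27 for Svs1, -0.20 to 0.088 for Svs2, -0.092 to 0.20 for Svs3a, -0.19 to 0.094 for Svs3b, -0.14 to 0.11 for Svs4, -0.088 to 0.10 for Svs5, -0.32 to 0.12 for Svs6 and -0.11 to 0.054 for Svs7. For mNKX3.1 against PE they were -0.65 to 0.51 for Svs2, -0.68 to 0.10 for Svs5 and -0.68 to 0.52 for Svs7.

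Levels below about 11 rest on estimated reads, 87 at the lowest, which limits the ratios of Svs1, Svs3a, Svs3b and Svs6 in PE and mNKX3.1. No paired analysis was possible because the labels number libraries only by an ID and give no replicate numbers shared between groups.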
